A study of Mus musculus with 103 samples.

Results

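The data described here come from wild-type mouse embryonic fibroblasts that were exposed to an adenovirus carrying the Cre recombinase (Adeno-Cre), with no floxed gene for Cre to delete. They comprise 4 of the 103 samples in the series, all RNA-seq of polyadenylated RNA, and were chosen by the labels for genotype and treatment alone. The 2 treated libraries came from cells that met the virus for 4 h and then rested for 10 d, and the 2 untreated libraries came from the same clones without virus. The labels name the sources as wild-type clone 2 and clone 3, so each clone gave 1 untreated and 1 treated library. All 4 were C57BL/6 fibroblasts from E13.5d embryos, held in quiescence. The wider study removed CTCF, cohesin or Wapl from such cells, and these samples are its control for the virus and for Cre. Cells treated with a virus that lacks Cre were not analysed here, so the effects of viral particles, of Cre protein and of the exposure itself cannot be told apart. The other groups compared below are Ctcf(fl/fl) fibroblasts (clones 1 and 2, with and without the same 4 h of Adeno-Cre and 10 d of rest), Ctcf(fl/fl) Wapl(fl/fl) fibroblasts (clones 3 and 4 untreated, clone 4 after Adeno-Cre) and Rosa26(CreER/+) fibroblasts. The last of these (clones 2 and 3) carry Cre fused to a hormone receptor domain at Rosa26. They were taken untreated and after 4'-hydroxytamoxifen for 2 to 3 d, with 10 d of rest. All compared groups came from E13.5d embryos. Libraries of Smc3 and of Wapl floxed fibroblasts, with and without 4'-hydroxytamoxifen, entered only the estimate of spread in the test.

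Adenoviral vectors enter cells through surface receptors and integrins and deliver a double-stranded DNA genome to the nucleus. Cells detect foreign nucleic acid with cytosolic and endosomal sensors, which switch on type I interferon genes. Secreted interferon binds its receptor on the same or neighbouring cells, and a complex that includes Stat2 and Irf9 then activates interferon-stimulated genes through a promoter element called the ISRE. These genes encode proteins that block viral entry, translation and replication, present peptides to T cells, and raise the level of the sensors and of Irf7, so that the response can maintain itself. Fibroblasts respond readily to interferon.

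The libraries matched their labelled cell type: Col1a1, a major collagen of connective tissue, stood at 3210 and 3032 RPKM untreated (clones 2 and 3) and 2257 and 2692 RPKM treated, and 0 of 12 fibroblast markers passed the test described next (1 higher and 0 lower by limma at an unadjusted p under 0.05). RPKM is a read count scaled by transcript length and by library size. The clones differed in their content of macrophage transcripts. The 18 macrophage markers summed to 2829 RPKM in untreated clone 2 and 169 RPKM in untreated clone 3, and to 1906 and 111 RPKM after Adeno-Cre. All 18 were higher in clone 2 than in clone 3, untreated and treated, and 17 of 18 were lower after the virus in each clone, although 0 of 18 passed the test (0 in either direction by limma at an unadjusted p under 0.05). Lymphocyte markers summed to 8.15 and 2.38 RPKM untreated and 3.97 and 0.0919 RPKM treated, and 0 passed. Within each clone the macrophage markers thus lay lower in the library where the interferon genes described below lay higher, and their part in the results was not tested. Muscle markers summed to 141 and 651 RPKM untreated and 147 and 505 RPKM treated, and epithelial markers to 17.6 and 77.7 RPKM and then 41.2 and 126 RPKM, without a call. Neural markers summed to 85.7 and 92.6 RPKM and then to 202 and 158 RPKM, with 1 of 7 tested higher, Tubb3. Endothelial markers summed to 34.3 and 29.2 RPKM and then to 29.8 and 28.8 RPKM, with 1 of 5 tested higher. Of 3 tested plasmacytoid dendritic cell markers 0 passed (0 higher and 1 lower by limma at an unadjusted p under 0.05). In bulk RNA, fewer cells of a type and less RNA per cell cannot be told apart. Depth was even, at 22.8 to 25.6 M reads in genes for the 4 libraries (8.5 to 41.1 M over the 27 libraries of the table). The genes deleted elsewhere in the study did not pass the test: Ctcf was at 15.1 and 16.2 RPKM untreated and 13.9 and 15.3 RPKM treated, and neither did Smc3 nor Wapal.

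After Adeno-Cre, 340 genes were higher (2.7% of 12604 tested) and 68 lower (0.54%), by limma on log2(RPKM + 1) with Benjamini-Hochberg adjusted p under 0.05. All fold changes here are differences on this log2(RPKM + 1) scale and understate changes of genes at low levels. The model took its spread from all 27 libraries. Each of the 408 genes moved the same way in both clones, and in each the treated libraries lay apart from the untreated ones. Over all genes tested, the treated libraries lay wholly above the untreated ones in 32.4% and wholly below in 21%, and the median log2 fold change was 0.04. Of the genes that rose, 34 (10.0%) belonged to 8 lists of the interferon pathway and 24 (7.1%) were replication-dependent histone genes. A further 30 (8.8%) were predicted genes, RIKEN clones, small RNAs or antisense transcripts and are counted only. The clones give n = 2 per group. The p-values of this fit rest on the spread within the groups of all 27 libraries, with differences between clones counted as error. They do not measure the spread of the response within clones, and a gene that did not pass is not shown to be unchanged. With the clone as a block, 1987 genes were higher (15.8%) and 912 lower (7.24%). Median-of-ratios rescaling, a scaling that sets the typical gene equal between libraries, gave 194 higher (1.54%) and 83 lower (0.659%). Fitted on the 4 wild-type libraries alone, 0 genes passed in either direction (1837 higher and 628 lower by limma at an unadjusted p under 0.05), and without treated clone 2, untreated clone 2 or untreated clone 3 the higher count was 42, 58 or 56 and the lower count 3, 5 or 9. Without treated clone 3 the counts were 323 and 160. Of the 15 genes with the highest and the 15 with the lowest fold changes, 7 passed whichever library was left out: Hist1h4h, Oasl1, Apol9a, Apol9b, Zbp1, Slpi and Sncg. Without treated clone 2, untreated clone 2, untreated clone 3 and treated clone 3, the number of the 30 that passed was 8, 10, 11 and 27.

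Interferon pathway genes, counted over 8 lists, gave more genes that rose than any other list. Among single lists the replication-dependent histones gave the most, 24 of 33 tested, against 16 of 53 for antiviral effectors, the largest interferon list. All lists were chosen with earlier results of these data known, so this ranking is not independent of the data. Of 139 tested members of the 8 lists (173 in the table), 34 rose and 0 fell. The other 105 did not pass, and 74 members were higher and 1 lower at an unadjusted p under 0.05, where all genes gave 1620 higher (12.9%) and 714 lower (5.66%). Treated libraries lay wholly above untreated ones in 99 members and wholly below in 3. The median log2 fold change of the 139 was 0.69, with 0.84 in clone 2 and 0.56 in clone 3. Summed over the lists, their level went from 5603 to 12087 RPKM in clone 2 and from 5151 to 8338 RPKM in clone 3. With the clone block 78 were higher and 2 lower, and the count of 34 went to 4, 13 and 8 without treated clone 2, untreated clone 2 and untreated clone 3. Fitted on the wild-type libraries alone it was 0.

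**Figure D1:**
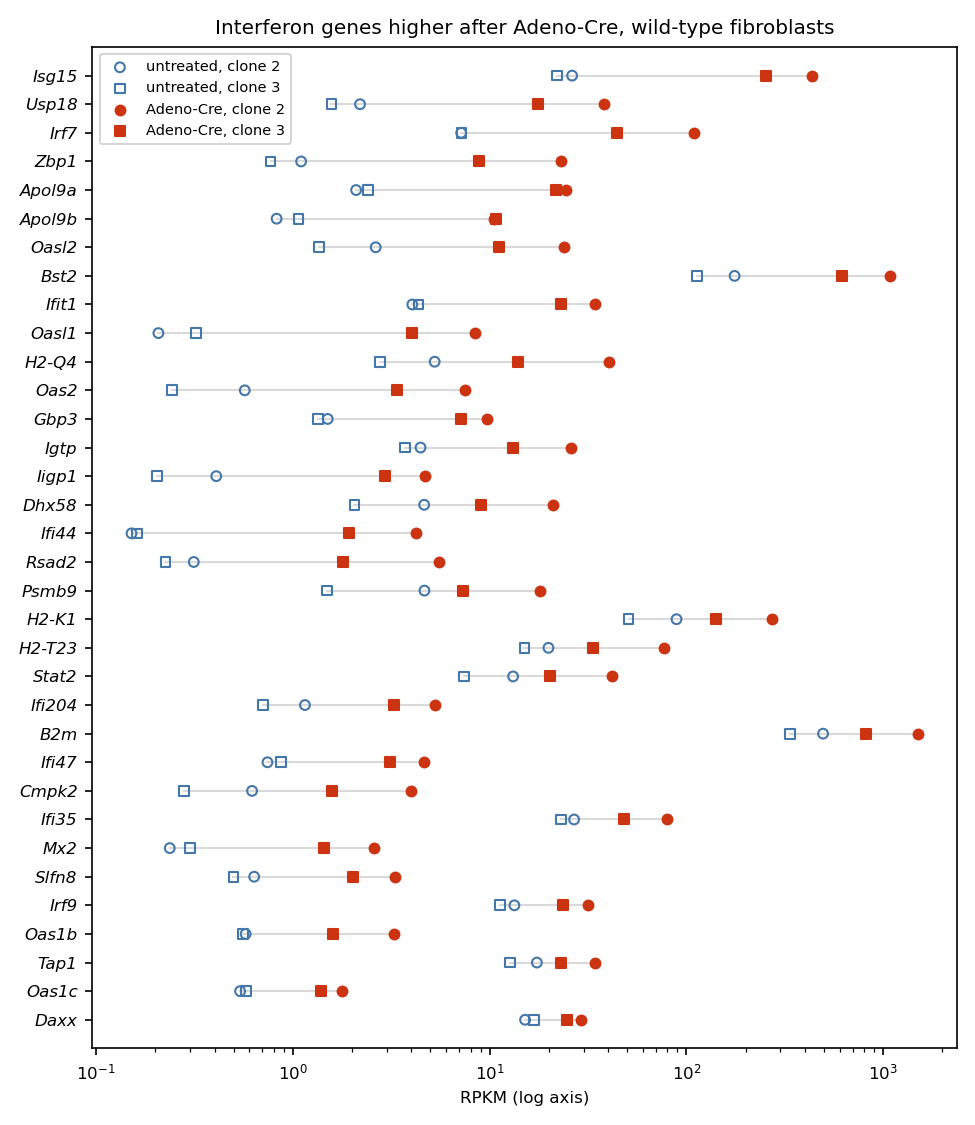
RPKM (log axis) of the 34 interferon pathway genes that rose, 1 row per gene, with open symbols for untreated and filled symbols for Adeno-Cre libraries, circles for clone 2 and squares for clone 3. Every filled symbol lies to the right of the open symbols of its gene, and the treated clone 2 library is the highest in nearly all rows.

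The response of the interferon genes was larger in clone 2. Among the 34 genes, 33 had a larger log2 fold change in clone 2, with a median of 1.99 against 1.52 in clone 3. Before treatment, 24 of the 34, and 110 of all 139 members, were already at a higher level in clone 2, which also held more macrophage transcripts. The part of macrophage transcripts in the difference between clones was not tested. These counts were not made over all genes tested, where the median log2 fold change was 0.02 in clone 2 and 0.06 in clone 3. A larger median in clone 2 was not particular to interferon genes. It was also seen for replication-dependent histones (1.22 and 0.95) and respiratory chain genes (0.61 and 0.48), but not for S phase genes (-0.04 and 0.19).

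Interferon transcripts themselves were nearly absent at the time of sampling. Of 19 interferon ligand genes in the table, 0 reached the level needed for a test and 15 were listed at 0 in all 4 libraries, Ifnb1 among them. A count of 0 allows up to 3 reads. Ifna13 (0.0478 RPKM), Ifna14 (0.893 RPKM) and Ifna5 (0.137 RPKM) were listed above 0 only in treated clone 2 among the 4 libraries, and Ifnz was at 0.0600 and 0.0581 RPKM untreated and 0.0268 and 0 RPKM treated. The receptor chains were expressed throughout. Ifnar1, a chain of the type I interferon receptor, was at 14.0 and 11.9 RPKM untreated and 10.3 and 9.80 RPKM treated, without passing (adjusted p = 0.166 by limma, 0.0190 with the clone block), and Ifnar2 overlapped between groups. Of 17 receptor and signalling genes 3 rose, namely Usp18, Stat2 and Irf9, with a list median of 0.02.

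The members that rose lay downstream of the receptor. Stat2, a transcription factor of this complex, was at 13.1 and 7.43 RPKM untreated and 42.0 and 20.2 RPKM treated (log2 fold change 1.47, SE 0.40, adjusted p = 0.0495). Irf9, its DNA-binding partner, was at 13.3 and 11.3 RPKM and then at 31.6 and 23.5 RPKM (1.09, SE 0.26, adjusted p = 0.0281). The kinases Jak1, Jak2 and Tyk2, which start the signal at the receptor, did not pass. Neither Stat2 nor Irf9 passed with the length trend described below removed (adjusted p = 0.0526 and 0.0540).

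The system that attaches Isg15 to proteins held the named gene with the largest rise. Isg15, a ubiquitin-like protein that is attached to viral and cellular proteins, was at 26.2 RPKM in clone 2 and 21.9 RPKM in clone 3 untreated, and at 435 and 252 RPKM after the virus. The treated libraries were far above the untreated ones and clone 2 was the higher of them (log2 fold change 3.73, SE 0.69, adjusted p = 0.00781). Usp18, the protease that removes Isg15 and also dampens the interferon receptor, was at 2.19 and 1.57 RPKM and then at 38.2 and 17.6 RPKM (3.24, SE 0.62, adjusted p = 0.00888). Neither passed without treated clone 2, untreated clone 2 or untreated clone 3, where the adjusted p by limma was 0.0582 to 0.139 for Isg15 and 0.0592 to 0.182 for Usp18. The conjugating enzyme Ube2l6 (14.3 and 10.5 RPKM, then 38.6 and 23.4 RPKM) and the ligase Herc6 passed only with the block (adjusted p = 0.0316 and 0.0105), and the activating enzyme Uba7 overlapped between groups.

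Promoter sequence was looked at because these genes moved together. The ISRE was searched as GAAA, any 2 bases and GAAA on either strand, counting overlapping matches, of the window from 250 bases before to 50 bases after each start in RefSeq (GRCm38.p6, while the deposited values use mm9). It was found in 3.44% of all 32851 windows and in 3.56% of the 9898 tested genes that matched a window. Of the 113 matched interferon members, 42 (37.2%) held it, as did 14 of the 27 that rose (51.9%) and 28 of the 86 that did not pass (32.6%). Of the 250 matched genes that rose and are in no interferon list, 9 (3.6%) held it, and of the 56 matched lower genes 0 did. A second element, the GAS (TTC, any 3 bases, GAA), known from interferon gamma targets, was in 8.3% of all windows, 20.4% of the interferon members and 11.1% of those that rose. A match is a description of these letters and not a shown binding site. The 200 bases before the start are given for 4 of the most raised genes, 5′ to 3′ on the gene's strand, with the ISRE match or overlapping matches in capitals, to show where the element sits.
Isg15 (chr4:156200819-156201018, minus strand): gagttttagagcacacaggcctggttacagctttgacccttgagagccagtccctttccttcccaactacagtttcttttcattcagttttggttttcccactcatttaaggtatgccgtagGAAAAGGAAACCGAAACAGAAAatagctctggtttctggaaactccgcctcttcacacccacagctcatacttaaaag
Ifit1 (chr19:34640689-34640888, plus strand): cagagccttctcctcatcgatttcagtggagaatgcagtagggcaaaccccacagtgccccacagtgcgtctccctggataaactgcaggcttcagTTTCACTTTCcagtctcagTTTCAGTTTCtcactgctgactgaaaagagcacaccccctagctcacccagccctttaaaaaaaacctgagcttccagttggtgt
Bst2 (chr8:71537473-71537672, minus strand): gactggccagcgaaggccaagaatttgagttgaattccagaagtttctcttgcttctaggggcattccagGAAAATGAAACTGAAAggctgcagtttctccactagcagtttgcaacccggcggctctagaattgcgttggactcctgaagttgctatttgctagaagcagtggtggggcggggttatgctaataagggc
Apol9a (chr15:77411081-77411280, minus strand): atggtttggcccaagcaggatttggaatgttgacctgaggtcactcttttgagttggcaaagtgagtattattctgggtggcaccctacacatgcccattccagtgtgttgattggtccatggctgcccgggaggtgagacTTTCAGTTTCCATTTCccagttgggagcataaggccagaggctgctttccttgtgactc
Positions are those of the first base of each match as printed, the base farthest from the start. The Isg15 stretch holds 3 overlapping matches, at 66 to 78 bases before the start. Ifit1 holds 2 matches (85 and 104 bases before), Bst2 holds 2 (124 and 130 bases) and Apol9a holds 2 (53 and 59 bases, from the first of its listed starts). No match to these letters lay in the windows of Irf7, Oasl1, Oasl2 or H2-Q4.

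Antiviral effectors made up the largest of the 8 interferon lists, with 16 of 53 tested members higher and 0 lower (median 0.96; 39 higher with the clone block). Ifit1, which binds viral RNA that lacks a host cap, was at 4.04 and 4.35 RPKM untreated and 34.3 and 23.1 RPKM treated (log2 fold change 2.49, SE 0.52, adjusted p = 0.0150). Bst2, or tetherin, which holds budding virus at the cell surface, went from 176 and 113 RPKM to 1087 and 616 RPKM, among the highest levels of the list (2.53, SE 0.41, adjusted p = 0.00325). The treated and untreated libraries were well apart for both. Ifit1 did not pass without treated clone 2, untreated clone 2 or untreated clone 3 (adjusted p of 0.0930 to 0.221 by limma), and Bst2 did not without treated clone 2 or untreated clone 3 (0.0841 and 0.0611).

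The oligoadenylate synthetase family, which activates an RNA-degrading enzyme or binds RNA, included Oasl1 (0.207 and 0.321 RPKM untreated, 8.46 and 4.01 RPKM treated, log2 fold change 2.45), Oas2 (0.569 and 0.243 RPKM, then 7.46 and 3.37 RPKM, 2.12) and Oasl2 (2.63 and 1.36 RPKM, then 23.8 and 11.2 RPKM, 2.57). Oasl1 had one of the smallest adjusted p-values of the pathway (2.91e-05 by limma), starting from near 0. Oasl2 passed narrowly (adjusted p = 0.0468 by limma). It did not pass with the length trend removed, median-of-ratios rescaling or a pseudocount of 0.1 (adjusted p = 0.0787, 0.0595 and 0.0567). Without treated clone 2 the log2 fold change of Oasl2 was 2.06. Oas1b and Oas1c also rose, and Oas1a and Oas3 were apart but did not pass (adjusted p = 0.0685 and 0.160). Reads from the near-identical Oas1 copies can be shared between them, so their single values are uncertain. The same limit holds for Apol9a (2.09 and 2.41 RPKM, then 24.3 and 21.7 RPKM) and its copy Apol9b (0.826 and 1.07 RPKM, then 10.5 and 10.7 RPKM), 2 apolipoprotein L genes. These 2 were raised about equally in the clones (adjusted p = 2.73e-05 for each).

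Rsad2, or viperin, which makes a chain-terminating nucleotide, went from 0.313 and 0.225 RPKM to 5.52 and 1.80 RPKM, and its neighbour Cmpk2 went from 0.620 and 0.280 RPKM to 3.98 and 1.58 RPKM. Ifi44, Ifi35, Ifi47, Mx2 (a dynamin-like GTPase) and Slfn8 rose as well, with log2 fold changes of 1.20 to 1.76. The abundant Ifitm3, which blocks viral fusion in endosomes, was at 905 and 875 RPKM untreated and 2201 and 1303 RPKM treated, and passed only with the block (adjusted p = 0.175 by limma, 0.0360 with the block). Ifit3, Rtp4, Xaf1 and Lgals3bp behaved in the same way, with log2 fold changes of 1.60 to 2.46 and adjusted p of 0.0750 to 0.221 by limma. Ifitm1 (2.10 and 2.89 RPKM, then 1.82 and 0.686 RPKM) was the sole member of the list whose treated libraries lay below the untreated ones, without passing.

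Of 17 tested nucleic acid sensors 3 rose and 0 fell (median 0.69; 10 higher at an unadjusted p under 0.05). Zbp1, a sensor of left-handed nucleic acid that can start necroptosis, was at 1.10 and 0.770 RPKM untreated and 22.9 and 8.83 RPKM treated (log2 fold change 2.99, SE 0.42, adjusted p = 0.000738). Dhx58, a regulator of the RIG-I-like helicases, went from 4.64 and 2.05 RPKM to 21.0 and 8.99 RPKM, and the DNA sensor family member Ifi204 from 1.15 and 0.706 RPKM to 5.30 and 3.25 RPKM. The RNA helicases Ifih1 (2.20 and 2.01 RPKM, then 5.23 and 3.99 RPKM) and Ddx58 and the kinase Eif2ak2, or PKR (5.60 and 5.48 RPKM, then 9.24 and 10.3 RPKM), were apart in both clones but passed only with the block (adjusted p = 0.0236, 0.0212 and 0.00189). The adaptors Mavs and Tmem173 (STING) and the kinase Tbk1, which pass the signal on from sensors, overlapped between groups. Dhx58 and Ifi204 did not pass with the length trend removed (adjusted p = 0.0678 and 0.0701).

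Of 7 tested interferon regulatory factors 2 rose. Irf7, the factor that amplifies interferon alpha production, was at 7.16 and 7.19 RPKM untreated and 109 and 44.6 RPKM treated (log2 fold change 3.11, SE 0.48, adjusted p = 0.00191). The untreated values of the clones were nearly equal, and treated clone 2 was the highest library, without which the adjusted p by limma was 0.0621. Irf9 was the other. Irf1 and Irf3, the latter held ready in resting cells, did not pass (log2 fold changes 0.24 and 0.16). Irf8, a factor of blood cells, was at 8.00 and 0.573 RPKM untreated and 5.03 and 0.378 RPKM treated, higher in clone 2 and lower after the virus in each clone without passing, as most macrophage markers were. Among 13 tested cell death genes of the interferon response, Zbp1 and Daxx rose. Mlkl, which permeabilises the membrane in necroptosis, was at 4.93 and 5.00 RPKM and then at 15.6 and 9.82 RPKM and passed only with the block (adjusted p = 0.123 by limma, 0.00713 with the block). The kinase Ripk3 did not pass.

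Guanylate-binding proteins and p47 GTPases attack the compartments of intracellular pathogens and respond most to interferon gamma. Of 9 tested members 3 rose, 7 were higher with the clone block, and in all 9 the treated libraries lay above the untreated ones (median 1.28). Gbp3 went from 1.5 and 1.34 RPKM to 9.74 and 7.15 RPKM (log2 fold change 1.95, SE 0.33, adjusted p = 0.00346), Igtp from 4.45 and 3.70 RPKM to 26.0 and 13.1 RPKM, and Iigp1 from 0.408 and 0.204 RPKM to 4.70 and 2.93 RPKM. Irgm1 (14.7 and 14.4 RPKM, then 48.7 and 37.2 RPKM) passed only with the block (adjusted p = 0.133 by limma, 0.00758 with the block). The other 8 of 17 genes in the table were too low to test, 2 of them at 0 in all 4 libraries.

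MHC class I presentation genes display peptides from inside the cell to T cells, and 6 of 22 tested members rose with 0 lower (median 0.41; 12 with the block). B2m, the shared light chain, was at 494 and 337 RPKM untreated and 1496 and 813 RPKM treated (log2 fold change 1.43, SE 0.29, adjusted p = 0.0123). The heavy chains H2-K1 (89.0 and 50.7 RPKM, then 272 and 141 RPKM), H2-Q4 (5.25 and 2.78 RPKM, then 40.4 and 13.8 RPKM) and H2-T23 rose too, and H2-D1 narrowly did not (67.2 and 28.1 RPKM, then 216 and 92.2 RPKM, adjusted p = 0.0534). Both untreated and treated levels of these heavy chains were higher in clone 2. Heavy chain genes are near-copies of each other, so the split of reads among them is uncertain. Tap1, which carries peptides into the endoplasmic reticulum, rose by a log2 fold change of 0.88, and of the immunoproteasome subunits Psmb9 rose (4.66 and 1.49 RPKM, then 17.9 and 7.33 RPKM) while Psmb8 passed only with the block (adjusted p = 0.00443). The general chaperone Canx did not pass, and neither did Tapbp. With the length trend removed, B2m, H2-K1, H2-T23, Tap1 and Psmb9 did not pass (adjusted p from 0.0543 to 0.106).

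**Figure D2:**
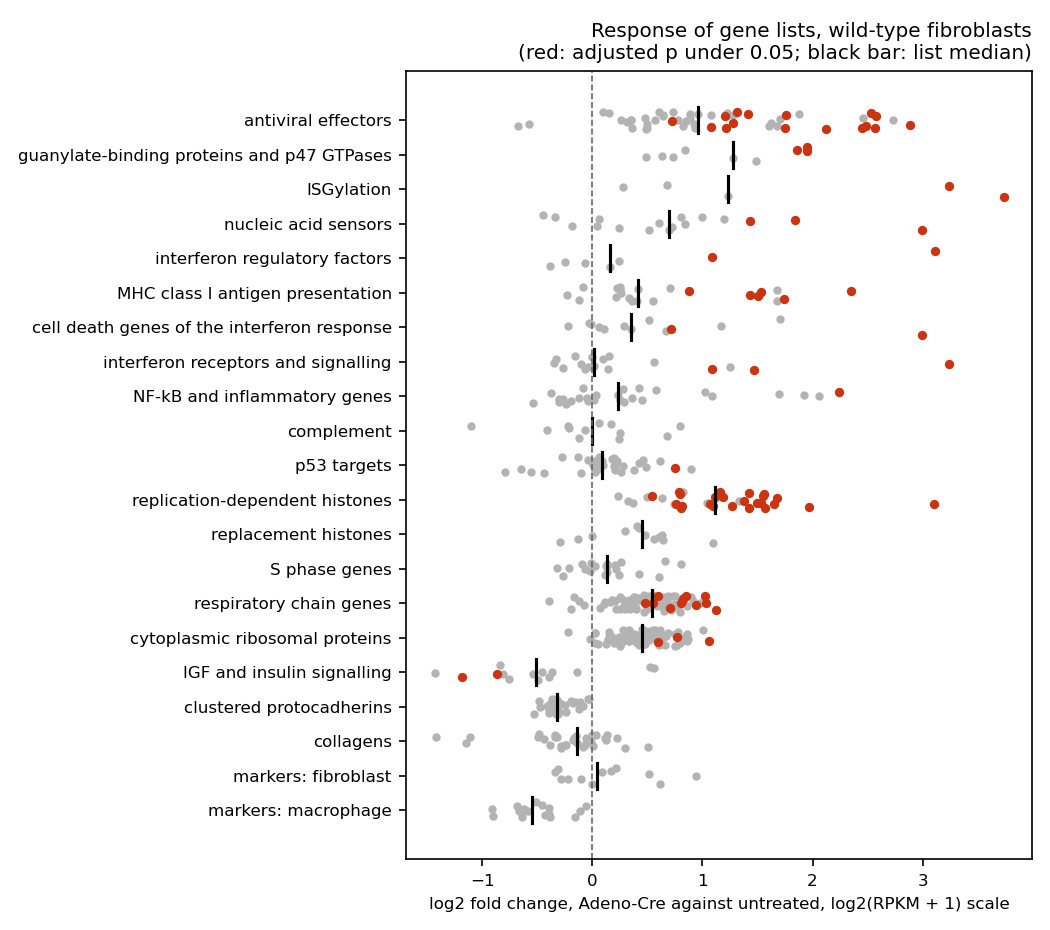
Log2 fold change after Adeno-Cre in wild-type fibroblasts for the tested members of 21 gene lists, 1 point per gene, red where the adjusted p was under 0.05, with the list median as a black bar. Interferon lists and replication-dependent histones reach furthest to the right, while protocadherins and macrophage markers lie left of 0, as does the median of IGF and insulin signalling.

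Of 27 tested NF-kB and inflammatory genes 1 rose, a share near the 2.7% of all genes, and the median was 0.23. It was Cxcl10, a chemokine that interferon also induces, at 2.12 and 2.79 RPKM untreated and 22.6 and 10.1 RPKM treated (log2 fold change 2.24, SE 0.50, adjusted p = 0.0204; 0.0741 with the length trend removed, and 0.101 to 0.327 without treated clone 2, untreated clone 2 or untreated clone 3). The acute phase protein gene Saa3 was at 38.4 and 113 RPKM and then at 181 and 428 RPKM, higher in clone 3 at both times, and the chemokine Ccl5 was at 0.913 and 0.241 RPKM and then at 5.11 and 4.58 RPKM. Both passed only with the block (adjusted p = 0.0836 and 0.0906 by limma, 0.0106 and 0.0478 with it). Nfkb1 and Relb lay lower in the treated libraries without passing. Of 12 complement genes 0 passed (2 higher and 0 lower by limma at an unadjusted p under 0.05), and of 4 tested adenovirus receptor genes 0 passed (0 at an unadjusted p under 0.05). With the block 3 of these 4 were lower. They were the coxsackie and adenovirus receptor Cxadr (2.31 and 7.05 RPKM, then 1.38 and 4.73 RPKM, adjusted p = 0.0370) and the integrin chains Itgav (25 and 26.3 RPKM, then 12.1 and 22.9 RPKM) and Itgb5 (adjusted p = 0.0263 and 0.0231).

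Cre can cut at genomic sites that resemble its target, and the tumour suppressor p53 activates genes after DNA damage. Of 33 p53 targets 1 rose and 0 fell (median 0.09), a share near the 2.7% of all genes. At an unadjusted p under 0.05 by limma 2 were higher and 3 lower, beside 12.9% and 5.66% of all genes. The gene that rose was Bax, a pore-forming death protein. It was at 205 and 206 RPKM untreated and 360 and 331 RPKM treated (log2 fold change 0.75, SE 0.16, adjusted p = 0.0166). With the length trend removed Bax did not pass (adjusted p = 0.378). Cdkn1a, the cell cycle inhibitor p21 and a principal target of p53, was at 618 and 712 RPKM untreated and 512 and 466 RPKM treated and did not pass. Among 24 integrated stress response genes 2 rose, 1 of them Ddit3 (163 and 153 RPKM, then 301 and 314 RPKM), the factor CHOP that is made under endoplasmic reticulum stress (0.96, adjusted p = 0.0300). With the length trend removed or with median-of-ratios rescaling 0 of the 24 passed (adjusted p of 0.406 and 0.0799 by limma for Ddit3).

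Replication-dependent histone genes package new DNA and are normally transcribed in S phase, with messages that end in a stem-loop and carry no poly(A) tail. Here, in libraries of polyadenylated RNA, 24 of 33 tested members rose and 0 fell, with a median log2 fold change of 1.12 (1.22 in clone 2 and 0.95 in clone 3). Their summed level went from 467 to 1164 RPKM in clone 2 and from 488 to 997 RPKM in clone 3. Hist1h4h was at 22.2 and 24 RPKM untreated and 252 and 169 RPKM treated (log2 fold change 3.10, SE 0.31, adjusted p = 2.73e-05). Hist1h4i went from 13.3 and 17.1 RPKM to 51.7 and 41.0 RPKM, Hist1h2bc from 143 and 129 RPKM to 271 and 206 RPKM, and the linker histone Hist1h1d from 1.27 and 2.57 RPKM to 7.47 and 7.39 RPKM. Most others started near or below 1 RPKM, such as Hist1h4a at 0.141 and 0.273 RPKM, which was then at 3.14 and 4.35 RPKM. The linker histone Hist1h1c had a high level in every library (234 and 267 RPKM, then 433 and 452 RPKM) and narrowly did not pass (adjusted p = 0.0587). Histone genes are short, intronless near-copies, so the assignment of reads to single members is uncertain. With the length trend removed 5 were higher (median 0.66), and the count was 6 with a pseudocount of 0.1 and 7, 7 and 8 without treated clone 2, untreated clone 2 and untreated clone 3.

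Of the other lists for dividing cells none gave a call, and their counts at an unadjusted p under 0.05 are to be read beside the 12.9% higher and 5.66% lower of all genes. Of 21 S phase genes 0 passed (4 higher and 0 lower by limma at an unadjusted p under 0.05, median 0.13), and of 16 G2 and M phase genes 0 passed (2 higher and 1 lower at an unadjusted p under 0.05, median 0.26). Mki67, which marks cycling cells, was at 1.74 and 1.28 RPKM untreated and 0.765 and 0.999 RPKM treated, without passing. The 11 genes that process histone 3′ ends also gave 0 calls (0 at an unadjusted p under 0.05). Replacement histones, which are made outside S phase with a poly(A) tail, gave 0 calls among 12 (3 higher at an unadjusted p under 0.05, median 0.45), though H2afj (96.7 and 99.3 RPKM, then 225 and 198 RPKM) and 5 others were higher with the block.

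Transcript length moved with the response. In 5 equal groups of tested genes, from the shortest (29 to 1536 bases) to the longest transcripts (4695 to 23397 bases), the median log2 fold change in wild-type cells was 0.36, 0.16, 0.06, -0.05 and -0.20. The order was the same in each clone and steeper in clone 2, from 0.40 to -0.29. In Ctcf floxed cells the same medians ran from 0.16 to -0.03, and in Cre-ER cells with hydroxytamoxifen they were 0.00 in both the shortest and the longest group. Genes higher after Adeno-Cre had a median length of 1352 bases, against 2792 bases for all genes tested and 5748 bases for genes that were lower. Removing this trend from each library left 107 genes higher (0.849%) and 24 lower (0.19%), of which 95 and 18 were among the 340 and 68, and 24 interferon genes higher. The cause of the trend was not tested.

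**Figure D3:**
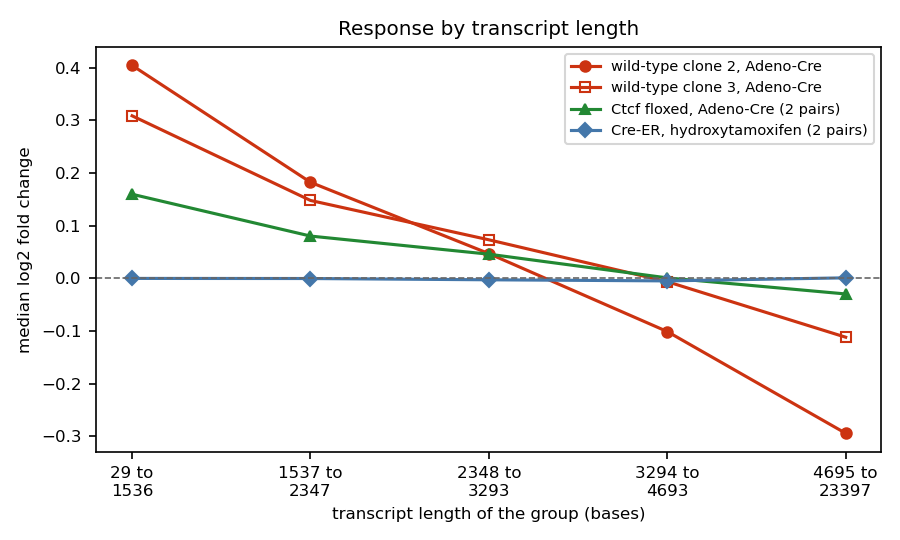
Median log2 fold change of the tested genes in 5 groups of rising transcript length (bases), for wild-type clone 2 and clone 3 after Adeno-Cre, Ctcf floxed cells after Adeno-Cre and Cre-ER cells after hydroxytamoxifen. The wild-type lines fall from 0.40 and 0.31 at the short end to -0.29 and -0.11 at the long end, and the Cre-ER line stays at 0.

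Respiratory chain genes, with a median transcript length of 742 bases, were among those this trend touches. Of 90 tested 12 rose and 0 fell (median 0.54; 61 with the clone block), including Cox4i1, a subunit of cytochrome c oxidase (531 and 447 RPKM, then 997 and 876 RPKM), Uqcrq of complex III (455 and 393 RPKM, then 1022 and 724 RPKM) and Ndufb6 of complex I (111 and 105 RPKM, then 257 and 191 RPKM). With the length trend removed 0 were higher (11 at an unadjusted p under 0.05 by limma) and the median was 0.15. With median-of-ratios rescaling 2 were higher, and 0 were without treated clone 2, untreated clone 2 or untreated clone 3. Cytoplasmic ribosomal protein genes, at a median of 706 bases, gave 3 of 79 higher (median 0.45), a share near the 2.7% of all genes. With the block 32 of them were higher, and the block counts of both lists are to be read beside 15.8% of all genes. Once the trend was removed 0 ribosomal protein genes were higher, with a median of 0.04.

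Lower genes were fewer and longer. Fmod (fibromodulin), a small proteoglycan that binds collagen fibrils, had the most negative fold change among the genes that fell with a group mean of at least 5 RPKM, from 229 and 157 RPKM untreated to 63.8 and 43.6 RPKM treated (log2 fold change -1.82, SE 0.32, adjusted p = 0.00494), and the clones moved alike. It also passed with the length trend removed (adjusted p = 0.00705), but not without untreated clone 2 (adjusted p = 0.0898). Mtss1, Gatsl2, Mgat3 and Uprt also passed with that trend removed, while Ahnak, Tns3, Bmpr2, Maf, Igdcc4, Syne3, Pdxk, Lnpep and Slc25a23 did not (adjusted p by limma from 0.0581 for Slc25a23 to 0.259 for Tns3, and 0.153 for Ahnak). Ahnak, a giant scaffold protein with a transcript of 18536 bases, was at 45.8 and 49.8 RPKM untreated and 10.4 and 27.1 RPKM treated (-1.44, adjusted p = 0.0410). Mtss1, an actin and membrane scaffold, was at 25 and 22.2 RPKM and then at 9.18 and 12.4 RPKM, Tns3, a focal adhesion protein, at 117 and 92.3 RPKM and then at 51.3 and 61.4 RPKM, and the BMP receptor Bmpr2 at 14.4 and 14.1 RPKM and then at 4.90 and 9.24 RPKM. The transcription factor Maf fell from 29.9 and 22.6 RPKM to 10.0 and 14.6 RPKM and its adjusted p by limma was 0.0513 when the clone was a block. Gatsl2, Igdcc4, Syne3, Mgat3, Pdxk, Lnpep, Uprt and Slc25a23 fell with log2 fold changes of -1.0 to -0.89. Syne3 and Tns3 did not pass with any 1 of the 4 libraries left out, and without treated clone 2 none of these genes except Fmod passed (adjusted p by limma 0.508 for Ahnak). In each of these genes except Fmod the treated library of clone 2 was lower than that of clone 3.

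**Figure D4:**
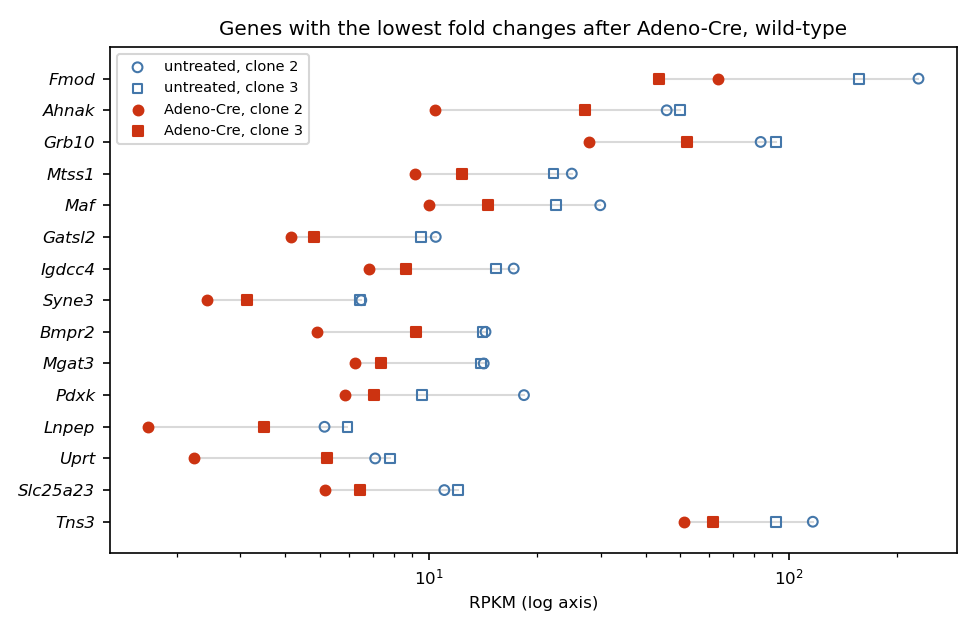
RPKM (log axis) of the 15 genes with the most negative log2 fold changes among those that fell, with open symbols for untreated and filled symbols for Adeno-Cre libraries, circles for clone 2 and squares for clone 3. Every filled symbol lies left of the open ones of its gene, and Fmod goes from 229 and 157 to 63.8 and 43.6 RPKM.

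Genes of insulin-like growth factor signalling had a median of -0.51. Of 14 tested members 2 fell and 0 rose (6 lower with the block). Grb10, an imprinted adaptor that restrains insulin and IGF receptors, was at 83.5 and 92.0 RPKM untreated and 28 and 52.0 RPKM treated (-1.18, SE 0.25, adjusted p = 0.0162; -0.74 and 0.339 without treated clone 2, and 0.0910 and 0.136 without untreated clones 2 and 3). Insr, the insulin receptor, went from 4.74 and 5.26 RPKM to 1.71 and 2.99 RPKM (-0.87, adjusted p = 0.0315; 0.113 with the length trend removed). The receptor Igf1r (14.1 and 18.0 RPKM, then 5.86 and 13.6 RPKM) and the adaptor Irs1 passed only with the block (adjusted p = 0.00573 and 0.0290). The growth factor Igf2 was at 293 and 290 RPKM untreated and 90.7 and 128 RPKM treated, apart in both clones, and passed in neither fit (log2 fold change SE 0.83, adjusted p = 0.381 by limma and 0.0558 with the block). Of 25 imprinted genes Grb10 alone passed. Plagl1 (36.3 and 39.98 RPKM, then 16.6 and 18.3 RPKM) passed with the block (adjusted p = 0.00196).

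Of 10 small leucine-rich proteoglycans Fmod fell and Epyc, from 0.486 and 0.520 RPKM to 2.76 and 1.99 RPKM, rose. Of 34 collagens 0 passed (0 higher and 1 lower by limma at an unadjusted p under 0.05), with Col8a2 (45.6 and 30.4 RPKM, then 11.3 and 15.7 RPKM) lower with the block (adjusted p = 0.00311). Of 22 elastic fibre genes 0 passed (1 higher and 3 lower at an unadjusted p under 0.05), and of 18 contractile genes 0 passed (0 at an unadjusted p under 0.05). Clustered protocadherins, adhesion proteins whose promoter choice depends on CTCF, also gave 0 calls among 33 (0 higher and 4 lower at an unadjusted p under 0.05), but the treated libraries lay below the untreated ones in 29 of them, against 21% of all genes, with a median of -0.32. Their median transcript length was 4536 bases, against 2792 bases for all genes tested, so the length trend touches them too. With that trend removed the wild-type median was -0.23 and 0 passed. In Ctcf floxed cells the median of these genes, with the trend left in, was -0.88 and 26 passed as lower. Outside these lists, Sncg (synuclein gamma; 7.54 and 5.96 RPKM, then 51.6 and 36.2 RPKM), the protease inhibitor gene Slpi (4.73 and 4.92 RPKM, then 35.7 and 24.2 RPKM) and the neuronal tubulin Tubb3 (38.7 and 41.1 RPKM, then 151 and 103 RPKM, adjusted p = 0.0126) rose.

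The same virus was used to delete Ctcf, so calls in Ctcf floxed cells can be set beside those in wild-type cells. In Ctcf floxed cells the effects of the virus, of Cre and of the loss of Ctcf cannot be told apart. There 635 genes were higher (5.04%) and 331 lower (2.63%), together 7.66% of the genes tested. Of the 340 genes that rose in wild-type cells 123 were also higher, which is 36.2% of the wild-type and 19.4% of the Ctcf floxed calls, and 0 were lower. Of the 68 lower genes 25 were also lower (36.8% and 7.55%). The groups share no library. Hist1h4h was higher in both, at 25.2 and 27.8 RPKM untreated and 133 and 119 RPKM treated in Ctcf floxed clones 1 and 2. Mtss1 had log2 fold changes of -1.07 in wild-type and -0.95 in Ctcf floxed cells.

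Interferon genes did not move in the same way in the 2 genotypes. The 34 that rose in wild-type cells had log2 fold changes with a median of 0.00 in Ctcf floxed cells, with 17 above 0 and 1, Oasl1, higher. All 139 tested members had a median of -0.08 there, against 0.05 over all genes tested. The test of the difference between the 2 responses gave 184 genes (1.46%), 93 higher (0.738%) and 91 lower (0.722%) in Ctcf floxed cells. Without untreated wild-type clone 2 or 3, treated wild-type clone 2 or treated Ctcf clone 1 that count was 106 to 116. Lower interferon genes numbered 10, against 0 higher: Ifit1 (-3.42, SE 0.74, adjusted p = 0.0202), Zbp1 (-3.17, SE 0.59, adjusted p = 0.00681), Irf7 (-2.90, SE 0.68, adjusted p = 0.0356), H2-T23, Apol9a, Gbp3, Apol9b, Ifi44, Irf9 and Tap2. With the clone block 43 interferon genes had a lower response.

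The untreated cells of the genotypes also differed. Untreated Ctcf floxed clone 1 already held Isg15 at 229 RPKM and clone 2 at 51.9 RPKM, above both untreated wild-type libraries, and the treated libraries were at 135 and 172 RPKM. Irf7 was at 38.2 and 9.21 RPKM untreated and 22.8 and 21.7 RPKM treated, and Ifit1 at 24.8 and 7.79 RPKM and then at 4.74 and 9.82 RPKM. For these 3 genes the treated library was lower than the untreated one in clone 1 and higher in clone 2. Without untreated Ctcf clone 1 the count of 10 went to 4, and Irf7 (-1.93, adjusted p = 0.162) and Ifit1 (-2.65, adjusted p = 0.117) no longer passed. The count was 3, 4 and 5 without treated wild-type clone 2, untreated wild-type clone 3 and treated Ctcf clone 1, and 20 and 21 without treated wild-type clone 3 and untreated Ctcf clone 2. Fitted on the wild-type and Ctcf libraries alone it was 0. The difference for Zbp1 passed with each single library left out, with adjusted p from 0.00157 to 0.04995.

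**Figure D5:**
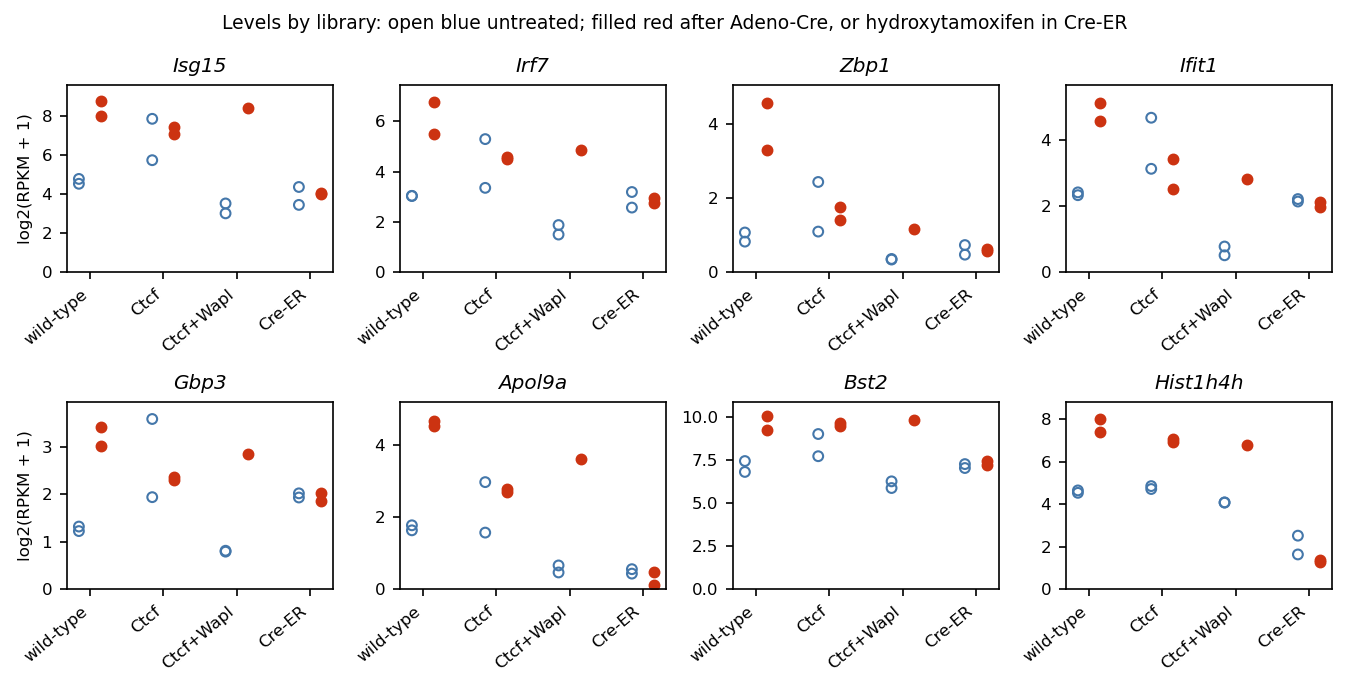
Levels as log2(RPKM + 1) of 7 interferon genes and Hist1h4h in wild-type, Ctcf floxed, Ctcf and Wapl floxed and Cre-ER cells, 1 point per library, open for untreated and filled for treated. In wild-type cells each gene is higher after Adeno-Cre, in Ctcf floxed cells 1 untreated library is already high for the interferon genes, and in Cre-ER cells the treated libraries lie near or below the untreated ones.

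Ctcf and Wapl floxed cells have 1 treated library (clone 4), so their values are given with no test. Isg15 was at 7.02 and 10.4 RPKM in untreated clones 3 and 4 and 338 RPKM treated, and Bst2 at 58.4 and 76.8 RPKM and then at 909 RPKM. Of the 34 interferon genes 33 had a log2 fold change above 0 in these 3 libraries, with a median of 1.75. These 34 were picked for their rise in wild-type cells, and the share above 0 was not counted over all genes. All 139 tested members had a median of 0.68 here, against 0.17 over all genes tested. Zbp1 was at 0.278 and 0.264 RPKM untreated and 1.22 RPKM treated.

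Cre-ER cells were given 4'-hydroxytamoxifen, meant to activate their Cre, and no virus. Cre activity was not examined here, and the route and length of treatment (2 to 3 d, against 4 h of Adeno-Cre) differed as well. In these cells 0 genes passed in either direction (0%; by limma 18 higher and 23 lower at an unadjusted p under 0.05). The log2 fold changes of the 34 interferon genes had a median of -0.01, from -0.21 to 0.44. Isg15 was at 19.4 and 9.83 RPKM untreated and 15.3 and 14.8 RPKM treated, and Irf7 at 8.11 and 4.93 RPKM and then at 6.71 and 5.67 RPKM, so that treated and untreated libraries overlapped. Hist1h4h was at 4.74 and 2.11 RPKM and then at 1.46 and 1.57 RPKM. The difference between Adeno-Cre in wild-type cells and hydroxytamoxifen in Cre-ER cells passed for 20 genes (0.159%), 18 higher (0.143%) and 2 lower (0.0159%), and for 811 with the clone block. It passed for 60 without treated wild-type clone 3 and for 5 to 9 without any other single library. Hist1h4h (3.85, SE 0.44, adjusted p = 0.0004), Apol9a (3.08, SE 0.41, adjusted p = 0.00195), Zbp1 (3.00, SE 0.59, adjusted p = 0.0468) and Oasl1 (2.64, SE 0.36, adjusted p = 0.00195) were among the higher ones. For Zbp1 the adjusted p was 0.133 to 0.318 without any 1 of the 8 libraries other than treated wild-type clone 3. For Isg15 the difference was 3.62 (SE 0.98) and passed only with the block (adjusted p = 0.250 by limma, 0.0224 with it).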

How the data were processed

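Per the file headers the authors gave RNA-seq levels in RPKM for 23339 genes in 27 libraries of 12 groups. The submitters' processing notes name the build mm9 and, without roles, bedtools, HTSeq, MACS 1.4.2, Bowtie 0.12.5 and TopHat (1.3.1, 1.4.1). The sources used here do not give the strand setting of the counting. No column of per-sample values was left unused (0). Low values were whole multiples of 1 read (tolerance 0.02 reads) in all 18155 genes searched, which gave each library's reads and each gene's transcript length.

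A gene entered the test when 2 or more libraries reached 1 RPKM (12604 genes). The test was limma 3.58.1 in R 4.3.3 (empirical Bayes, trend and robust options) on log2(RPKM + 1), with 1 mean per group over all 27 libraries (15 residual degrees of freedom) and a Benjamini-Hochberg adjusted p threshold of 0.05. Differences between responses were contrasts in the same model. The script was tested on simulated data. Treated and untreated libraries of 1 clone are paired by the labels. The deviations of a clone's libraries from their group means correlated at 0.76 in wild-type and 0.68 in Ctcf floxed cells and at -0.20 in Cre-ER cells. One alternative added the clone as a block, leaving 7 residual degrees of freedom. Others were median-of-ratios rescaling, a pseudocount of 0.1, no filter on low values, removal of a loess trend on transcript length (span 0.5) from each library, fits on fewer groups and leaving out each library. The block together with the length trend, and crossed Cre-ER pairs, were added after seeing the data.

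The members and gene lists were chosen with earlier results of these data known. Genes named are the 15 highest and 15 lowest fold changes past the threshold that moved alike in both clones with a group mean of at least 5 RPKM, the 5 highest and 5 lowest for each difference, members of the lists, and Ctcf, Smc3 and Wapal. Promoter windows were RefSeq's, matched by symbol.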

Additional observations from a re-analysis of the deposited data

Results flagged for a closer look

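The response to Adeno-Cre differed between Ctcf floxed and wild-type cells, by the test of the difference itself, for these named genes. Values are the log2 fold change in Ctcf floxed minus that in wild-type cells. It was lower for Ifit1 (-3.42), Zbp1 (-3.17), Irf7 (-2.90), H2-T23 (-2.46), Apol9a (-2.42), Gbp3 (-2.39), Apol9b (-1.92), Ifi44 (-1.76), Irf9 (-1.68) and Tap2 (-1.22), all of the interferon pathway. It was also lower for Krtcap2 (-2.47), a subunit of the complex that attaches sugars to proteins, and Hist1h4j (-1.63). Krtcap2 was at 233 and 231 RPKM untreated and 414 and 281 RPKM treated in wild-type cells, against 200 and 233 RPKM and then 46.2 and 68.2 RPKM in Ctcf floxed cells.

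The response was higher in Ctcf floxed cells for Cldn3 (3.55), a tight junction protein, Ada (3.52), adenosine deaminase, Slc14a1 (2.98), a urea transporter, Pip5k1b (2.64), a lipid kinase, and Bdh1 (2.48), an enzyme of ketone metabolism. None of these 5 passed in wild-type cells, except that Cldn3 (0.139 and 0.202 RPKM untreated, 0.929 and 1.04 RPKM treated there) was higher with the clone block (adjusted p = 0.0233 by limma). Ada was at 10.5 and 7.26 RPKM untreated and 8.74 and 8.08 RPKM treated there.

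Between Adeno-Cre in wild-type and hydroxytamoxifen in Cre-ER cells the difference in log2 fold change was 3.85 for Hist1h4h, 3.08 for Apol9a, 3.00 for Zbp1, 2.66 for Ppp1r14a (an inhibitor of myosin phosphatase), 2.64 for Oasl1, 2.53 for Apol9b and -1.02 for Fndc4.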

How the results depend on the processing

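Counts moved with the settings. None of the 30 named wild-type genes changed sign under any setting run, but their choice largely fixed this beforehand. They were taken for moving alike in both clones, and their treated and untreated libraries lay apart. Leaving out 1 library could thus not reverse a sign, and the block and wild-type fits keep the same fold changes. With the replicate block by clone, genes higher and lower were 1987 and 912, differences from Ctcf floxed cells 876 and from Cre-ER cells 811 (689 with Cre-ER pairs crossed), interferon genes higher 78, respiratory genes 61 and interferon genes lower in Ctcf floxed cells 43. It included all 340 higher and 67 of the 68 lower calls, and changed the call of 1 of the 30 named genes, Maf. With the block and length trend removal together these counts were 786, 527, 682, 60, 64, 7 and 37, in the order higher, lower, Ctcf difference, Cre-ER difference, interferon, respiratory and interferon lower in Ctcf floxed cells, and histones 14. Length trend removal alone gave 107 higher, 24 lower, 9 for Cre-ER, 5 histones and 0 respiratory genes. Median-of-ratios rescaling gave 194 higher against 83 lower, and 2 respiratory genes. A pseudocount of 0.1 gave 204 higher, 5 for Cre-ER, 6 histones and 5 respiratory genes. With no filter 620 were higher, 307 differed from Ctcf floxed and 111 from Cre-ER cells. Fits on wild-type libraries alone (2 residual degrees of freedom) gave 0 for every wild-type count, and those with Ctcf or Cre-ER libraries gave 22 and 5, with 0 interferon genes lower in Ctcf floxed cells. Leaving out 1 library gave 42 to 323 higher, 3 to 160 lower, 106 to 203 and 5 to 60 for the 2 differences, 4 to 39 interferon, 7 to 21 histone and 0 to 10 respiratory genes, and 3 to 21 interferon genes lower in Ctcf floxed cells. Of the 30 named genes 19 passed with the length trend removed. A level of 1 RPKM in a gene of median length is 63.7 to 71.4 reads in these libraries, so genes well below 1 RPKM rest on few reads.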
